A study of Mus musculus with 7 samples.

Results

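Hox genes of all 4 clusters were followed through 7 stages of mouse colon. A gene belonged to the set when its symbol was Hox, a cluster letter from a to d and a paralogue number, and its level was the median over the probe sets that name that gene alone. By this rule 33 of the 18194 genes measured were Hox genes, 9 in the Hoxa cluster on chromosome 6, 9 in the Hoxb cluster on chromosome 11, 7 in the Hoxc cluster on chromosome 15 and 8 in the Hoxd cluster on chromosome 2. Hoxb8 and Hoxd4 were measured only by probe sets shared with a neighbour, and Hox genes with no probe set of either kind were not analysed here.

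The samples were colon of inbred C57BL/6 mice with no stated treatment, collected on each of 6 embryonic days, E13.5 through E18.5, and from adults 8 weeks old. Total RNA of each stage was hybridized to 1 Affymetrix array, so no stage has a replicate. The labels do not say how many animals were pooled, nor which part of the colon was taken. A change with stage and a difference in the part of colon taken therefore cannot be told apart here. Values are log2 intensities normalized by RMA, the robust multi-array average. Because different probe sets bind with different strength, changes of genes are compared below, not their levels.

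Hox genes encode homeodomain transcription factors that give cells along the head to tail axis their regional identity. In mammals they lie in 4 clusters, and the order of genes along a cluster matches both the time and the anterior limit of their expression, so that genes of low paralogue number act toward the head and genes of high number toward the tail. Genes with the same number in different clusters are paralogues and often share functions. In the gut, many Hox genes are transcribed in the mesenchyme and in the enteric nervous system. The posterior ones mark the hindgut, from which the distal part of the colon forms.

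The promoters of 4 Hox genes are shown because the comparisons below turn on these genes: Hoxd9 and Hoxd10, neighbours that fell together, Hoxd3, which had the largest adult difference of the set, and Hoxa5, which rose and was then lower in the adult. Each runs from 250 bases before to 50 bases after a transcription start in RefSeq, build GRCm38.p6. They lie at chr2:74697513-74697812 (Hoxd9, plus strand), chr2:74691641-74691940 (Hoxd10, plus strand), chr2:74711743-74712042 (Hoxd3, plus strand) and chr6:52204538-52204837 (Hoxa5, minus strand). Capitals mark matches, on either strand, to TTTATG (bound by caudal and posterior Hox proteins) or AGGTCA (a half-site of retinoid receptors). In Hoxd3 the 2 matches overlap.
Hoxd9: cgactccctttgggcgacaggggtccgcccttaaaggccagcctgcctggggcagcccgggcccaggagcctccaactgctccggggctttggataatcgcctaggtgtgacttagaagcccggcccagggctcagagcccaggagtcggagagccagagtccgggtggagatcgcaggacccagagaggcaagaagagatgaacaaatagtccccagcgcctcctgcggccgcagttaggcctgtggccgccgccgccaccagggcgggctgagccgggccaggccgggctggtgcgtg
Hoxd10: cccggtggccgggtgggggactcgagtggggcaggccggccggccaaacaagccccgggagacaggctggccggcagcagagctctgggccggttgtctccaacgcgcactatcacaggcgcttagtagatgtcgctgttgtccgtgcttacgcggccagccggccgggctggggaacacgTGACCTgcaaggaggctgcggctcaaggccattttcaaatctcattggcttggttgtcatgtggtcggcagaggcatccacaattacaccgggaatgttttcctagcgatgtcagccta
Hoxd3: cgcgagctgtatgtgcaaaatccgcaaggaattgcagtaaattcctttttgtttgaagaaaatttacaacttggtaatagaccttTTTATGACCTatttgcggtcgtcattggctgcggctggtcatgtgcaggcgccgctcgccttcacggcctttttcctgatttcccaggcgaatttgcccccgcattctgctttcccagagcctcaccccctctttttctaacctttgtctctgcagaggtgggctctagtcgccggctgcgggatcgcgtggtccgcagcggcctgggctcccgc
Hoxa5: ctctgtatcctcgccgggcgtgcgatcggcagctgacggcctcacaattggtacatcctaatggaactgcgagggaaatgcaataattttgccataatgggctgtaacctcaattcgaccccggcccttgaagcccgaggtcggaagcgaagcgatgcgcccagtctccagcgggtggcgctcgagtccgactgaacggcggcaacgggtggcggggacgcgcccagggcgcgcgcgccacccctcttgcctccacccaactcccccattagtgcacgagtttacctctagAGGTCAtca
Promoters were found for 19 of the 33 Hox genes, 21 promoters in all. AGGTCA was present in 6 of the 21 Hox promoters, against 16.3% of all 32851 mouse promoters of this length, and TTTATG was present in 3 of 21, against 11.9%. TGACAG, a motif of Meis proteins, was present in 2 of 21, against 19.2% of all promoters, and TGATNNAT, a joint motif of Pbx and Hox proteins, in 3 of 21, against 8.85%. TATAAA was present in 2 of 21, against 13.6%. The Hoxd9 promoter held none of these 5 motifs. A match describes letters in this window and not a bound site.

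RMA brings all 7 arrays to 1 distribution, so similar overall levels were fixed in advance. The median over all genes lay between 6.07 and 6.17 on the log2 scale. Markers of intestinal epithelium were present. Over the embryonic days 7 of 7 colon identity genes and 10 of 11 pan-epithelial genes rose, when 9.12% of all genes did. However, 3 of 5 small intestine genes (Fabp6, Apoa4 and Alpi) rose too. Slc26a3, a chloride exchanger of the colon, stayed between 4.33 and 4.85 in the embryo and reached 9.62 in the adult. The embryonic arrays are therefore taken as colon from their labels. The adult array stood apart in RNA quality. For Gapdh, the signal of the 5′ probe set minus that of the 3′ one was −2.41 on the adult array, against −1.59 to −1.29 in the embryo. For Actb it was −2.66 on the adult array, against −2.14 to −1.96 in the embryo. A more negative value goes with shorter RNA.

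**Figure D1:**
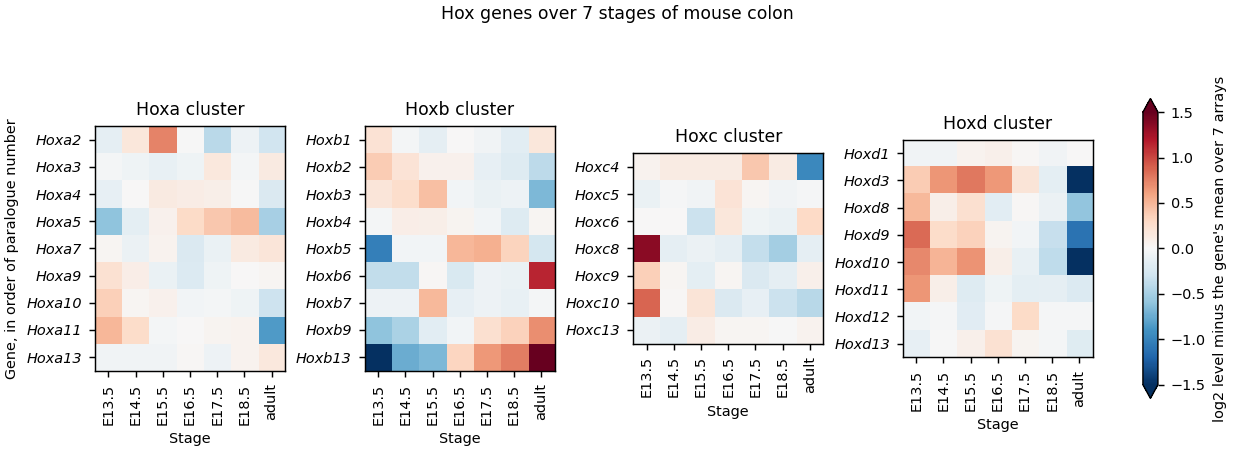
Heat map of the 33 Hox genes by cluster, with stages from left to right and paralogue number from top to bottom. Colour gives the log2 level minus the mean of the gene over its 7 arrays, and values beyond 1.5 in either direction take the end colours. Hoxb13 is lowest at E13.5 and highest in the adult, while Hoxd3, Hoxd9 and Hoxd10 are lowest in the adult.

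The first comparison asked which Hox genes changed steadily over the embryonic days. In 4 Hox genes expression rose from E13.5 to E18.5, namely Hoxb13, Hoxb5, Hoxa5 and Hoxb9, and in 4 it fell, namely Hoxd10, Hoxd9, Hoxc10 and Hoxb2. Hoxb5, Hoxb9 and Hoxb13 lie in 1 cluster, and no Hoxd or Hoxc gene rose. A slope per day was called at an adjusted p under 0.05 in a limma fit over all genes. Rising genes made up 12.1% of the Hox genes, against 9.12% of all genes, and falling genes made up 12.1%, against 10.4% of all genes, so both shares were near the background. The median slope was −0.02 log2 units per day over the 33 Hox genes.

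Hoxb13, a posterior gene of the hindgut and prostate, had the steepest slope of the set. From E13.5 through E18.5 its levels were 6.48, 7.56, 7.63, 8.63, 8.96 and 9.07, followed by 9.80 in the adult. Each array was higher than the one before it, and the adult array was the highest. The slope was 0.52 ± 0.06 log2 units per day (SE), which is 6.02-fold over 5 days, with an adjusted p of 0.00265. The increase was uneven. Hoxb13 was the one Hox gene at least 2-fold higher at E14.5 than at E13.5, a step found in 0.324% of all genes, and again the one with such a step between E15.5 and E16.5, found in 1.01% of all genes.

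Hoxb9, which patterns the trunk skeleton, rose more evenly. Its levels were 6.65, 6.78, 7.09, 7.21, 7.49 and 7.60 from E13.5 to E18.5 and 7.95 in the adult. Like Hoxb13, it increased at every step of the 7 stages. The slope was 0.20 ± 0.02 per day, or 2.01-fold over 5 days (adjusted p = 0.00174).

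Paralogue group 5 gave the other 2 rising genes. Hoxb5, which acts in the enteric nervous system, had levels of 8.57, 9.55, 9.55, 10.09, 10.12 and 9.93 from E13.5 to E18.5 and 9.33 in the adult. Most of this increase lay between E13.5 and E14.5, and the highest level was at E17.5. The slope of 0.26 ± 0.07 per day (adjusted p = 0.0374) was 0.13 without the E13.5 array, with an adjusted p of 0.192, and the call was also lost without the E14.5, E16.5 or E17.5 array. Hoxa5, which is needed in lung and gut mesenchyme, had levels of 7.61, 8.06, 8.28, 8.50, 8.62 and 8.69 from E13.5 to E18.5 and 7.71 in the adult. It increased at every embryonic step, by smaller amounts at the later ones, and its adult level was close to that at E13.5. The slope was 0.21 ± 0.03 per day, or 2.07-fold over 5 days (adjusted p = 0.00459). The third gene of the group, Hoxc5, did not pass the test, with a slope of 0.02 ± 0.03 (adjusted p = 0.74).

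Hoxd9 and Hoxd10, neighbours in the posterior part of the Hoxd cluster that pattern the limbs and the lumbar spinal cord, fell side by side. Hoxd10 had levels of 11.27, 11.05, 11.22, 10.63, 10.43 and 10.17 from E13.5 to E18.5 and 9.05 in the adult. Hoxd9 had levels of 11.54, 10.96, 11.03, 10.73, 10.65 and 10.34 over the same embryonic days and 9.58 in the adult. In both genes E13.5 was the highest stage and the adult the lowest. The slope of Hoxd10 was −0.23 ± 0.04 per day, 2.19-fold lower over 5 days (adjusted p = 0.00713), and without the E18.5 array it was −0.21, with an adjusted p of 0.0599. The slope of Hoxd9 was −0.21 ± 0.03 per day, 2.04-fold lower over 5 days (adjusted p = 0.00613).

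Hoxc10, a paralogue of Hoxd10, had levels of 6.38, 5.53, 5.70, 5.29, 5.38 and 5.19 from E13.5 to E18.5 and 5.09 in the adult. The E13.5 array stood above all others. Its slope of −0.19 ± 0.05 per day (adjusted p = 0.0383) was −0.10 without that array, with an adjusted p of 0.192, and the call was also lost without the E16.5, E17.5 or E18.5 array. Hoxb2, known for its part in the hindbrain, had levels of 5.49, 5.31, 5.17, 5.17, 4.98 and 4.91 over the embryonic days and 4.72 in the adult. These values, like those of Hoxc10 except at E13.5 and E15.5, lay within the range of olfactory receptor genes. Such genes are used below as genes not transcribed in colon. Hoxb2 decreased in small steps within that range. Its slope was −0.11 ± 0.02 per day (adjusted p = 0.00922), and without the E13.5 array the adjusted p was 0.0672.

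Hoxc8, which patterns the thorax and its motor neurons, had the lowest slope of the set but did not pass the test. From E13.5 through E18.5 its levels were 7.0, 5.51, 5.55, 5.51, 5.28 and 5.13, followed by 5.51 in the adult. The E13.5 array alone was high, and the other 6 lay within 0.43 of each other, at levels within the olfactory receptor range. The slope was −0.29 ± 0.08 per day (adjusted p = 0.0568), and it was called as falling in 4 of 11 alternative fits, with adjusted p between 0.0323 and 0.0496. Hoxc8 was the one Hox gene at least 2-fold lower at E14.5 than at E13.5, a step found in 0.115% of all genes. Hoxa11, which acts in limb, kidney and uterus, had the second largest slope of its cluster in size, −0.08 ± 0.03 (adjusted p = 0.131), with levels of 6.95, 6.73, 6.43, 6.46, 6.50 and 6.51 from E13.5 to E18.5 and 5.60 in the adult. It was thus nearly level from E15.5 to E18.5.

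**Figure D2:**
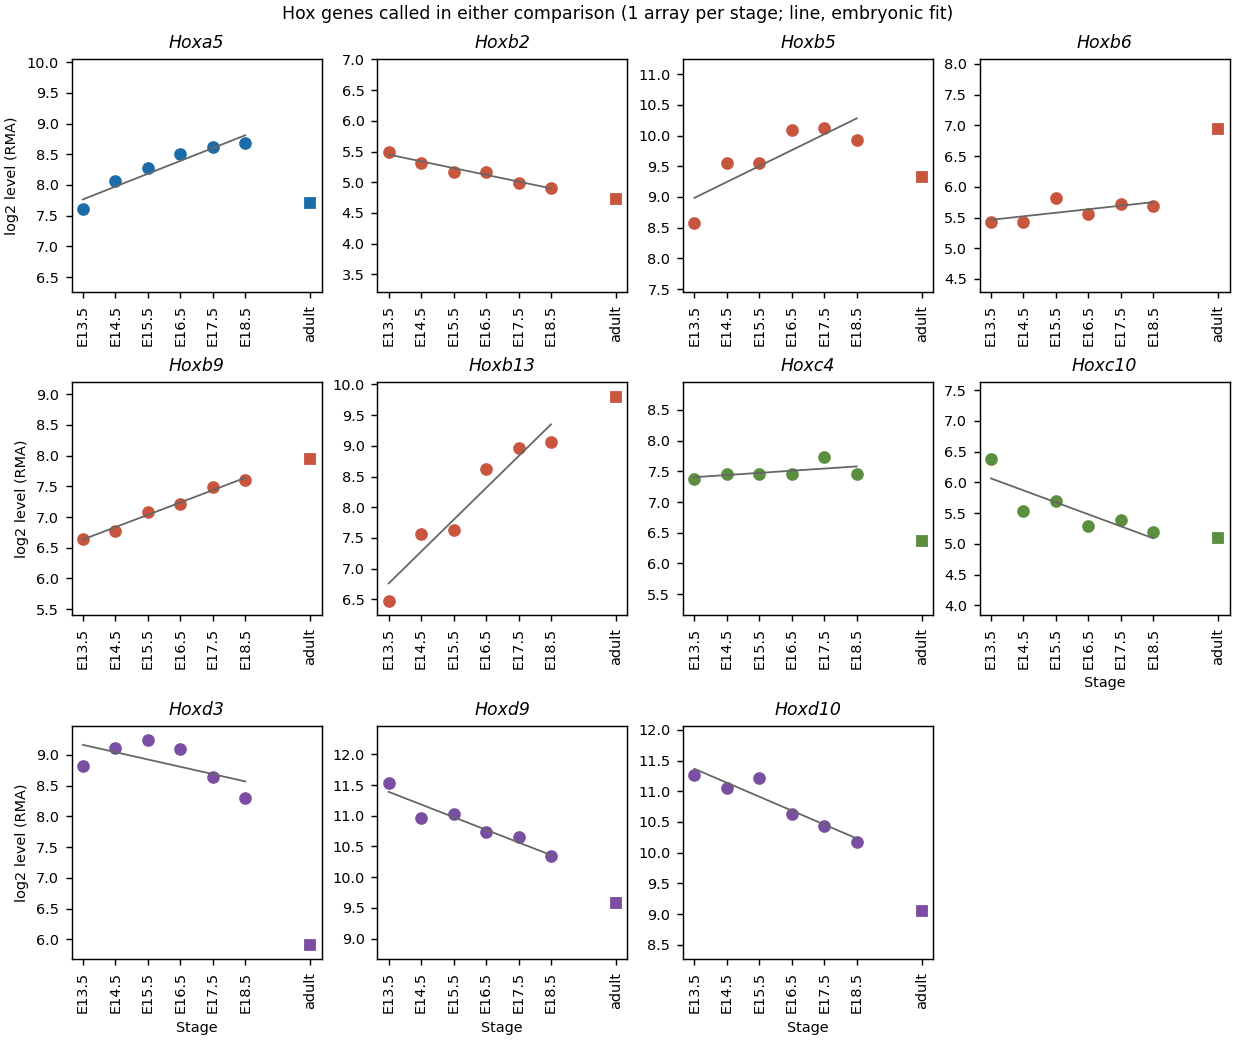
Log2 RMA level of the 11 Hox genes called in either comparison, with 1 array per stage (circles, embryonic; square, adult) and the line fitted through the embryonic arrays. Every panel spans the same height in log2 units. Hoxb13 and Hoxb9 continue upward to the adult, Hoxa5 and Hoxb5 do not, and the adult value of Hoxd3 lies far below its line.

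In bulk tissue, fewer cells of a type and less RNA per cell cannot be told apart, so the levels of cell markers are given beside these slopes. The median level of the 11 pan-epithelial genes was 9.61, 10.28, 10.37, 11.38, 11.53 and 11.57 from E13.5 to E18.5 and 11.86 in the adult. Over all genes 9.12% rose and 10.4% fell. Of 12 mesenchyme and fibroblast genes 3 rose and 3 fell, and of 10 smooth muscle genes 6 rose and 1 fell. Of 8 enteric neuron genes 3 rose, and of 7 mitotic genes all 7 fell. The part of these shifts in the slopes of the Hox genes was not tested.

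The second comparison set the adult colon against the embryonic line, as the adult level minus the level fitted at E18.5. Against that fitted level, Hoxd3, Hoxc4, Hoxd10 and Hoxa5 were lower in the adult by 2-fold or more, and Hoxb6 was higher by 2-fold or more. Against the measured E18.5 array the difference of Hoxa5 was −0.98, just under 2-fold, and the others stayed past 2-fold. The 4 lower genes came from 3 clusters and had low, middle and high paralogue numbers. A difference was called at an adjusted p under 0.05 and a size of at least 1 on the log2 scale. Lower genes made up 12.1% of the Hox genes, against 3.26% of all genes, and the 1 higher gene 3.03%, against 4.23% of all genes. The single adult array is assumed to vary like the embryonic arrays around their line.

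Hoxd3, a gene of the neck vertebrae, had the largest adult difference. From E13.5 through E18.5 its levels were 8.82, 9.11, 9.24, 9.10, 8.64 and 8.30, followed by 5.90 in the adult. The embryonic levels formed a low arch with its top at E15.5, and the adult array lay far below all of them. The adult difference was −2.67 ± 0.31, 6.38-fold lower, with an adjusted p of 0.00167. Its embryonic slope was −0.12 ± 0.06 (adjusted p = 0.236). All of these values rest on 1 probe set, 1437664_at.

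Hoxc4, which patterns the neck and is active in lymphocytes, was flat in the embryo. Its levels were 7.38, 7.46, 7.46, 7.46, 7.74 and 7.46 from E13.5 to E18.5 and 6.37 in the adult. The same value, 7.46, equal to 6 decimals, occurred on 4 arrays, and the adult array alone was low. The adult difference was −1.22 ± 0.14, 2.32-fold lower (adjusted p = 0.00172). A value shared to 6 decimals by 3 or more arrays was a property of 5 Hox genes, Hoxa13, Hoxb7, Hoxc4, Hoxc8 and Hoxd12, and of 13% of all genes.

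Hoxd10 and Hoxa5 were called in both comparisons, in the same direction for Hoxd10 and in opposite directions for Hoxa5. For Hoxd10 the adult difference was −1.18 ± 0.19, 2.26-fold lower (adjusted p = 0.00613). For Hoxa5 it was −1.11 ± 0.15, 2.16-fold lower (adjusted p = 0.00324), and with the brighter of its 2 probe sets it was −0.84, under the 2-fold limit. Hoxd9 and Hoxa11 each had a difference of −0.78 (SE 0.16 and 0.17) with adjusted p of 0.0174 and 0.0195, also under that limit. Hoxb5 had −0.96 ± 0.35 and did not pass the test (adjusted p = 0.108).

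Hoxb6, a gene of the trunk mesoderm, was the only Hox gene called higher in the adult. Its levels were 5.42, 5.42, 5.81, 5.56, 5.72 and 5.69 from E13.5 to E18.5 and 6.94 in the adult. No embryonic array came near the adult one. The embryonic levels lay close to 5.59, the top of the olfactory receptor range, so the size of the fold is uncertain. The adult difference was 1.20 ± 0.16, or 2.29-fold higher (adjusted p = 0.00288). The rising genes Hoxb13 and Hoxb9 lay above their lines by 0.45 ± 0.30 (adjusted p = 0.392) and 0.31 ± 0.10 (adjusted p = 0.0821), which did not pass.

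Markers of other cell types also differed in the adult. Over all genes 4.23% were called higher and 3.26% lower. Of 12 mesenchyme and fibroblast genes 6 were called lower and 1 higher, and their median level was 7.50 in the adult and 8.31 at E18.5. Of 8 enteric neuron genes 4 were called lower, with a median of 6.81 in the adult and 7.70 at E18.5. Of 8 immune genes 5 were called higher, with a median of 7.67 in the adult and 6.22 at E18.5. Of 4 adipocyte genes Adipoq was higher, by 3.07 (adjusted p = 3.69e-05). Of 10 smooth muscle genes Smtn (2.09) and Synpo2 (1.09) were higher and Myocd (−1.22) was lower, and of 7 mitotic genes Mki67 and Bub1 were lower. Among 5 small intestine genes Apoa4 was lower (−1.70, adjusted p = 0.0435). Their part in the Hox differences was not tested, and neither was that of the more negative 5′ minus 3′ differences of the adult array.

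**Figure D3:**
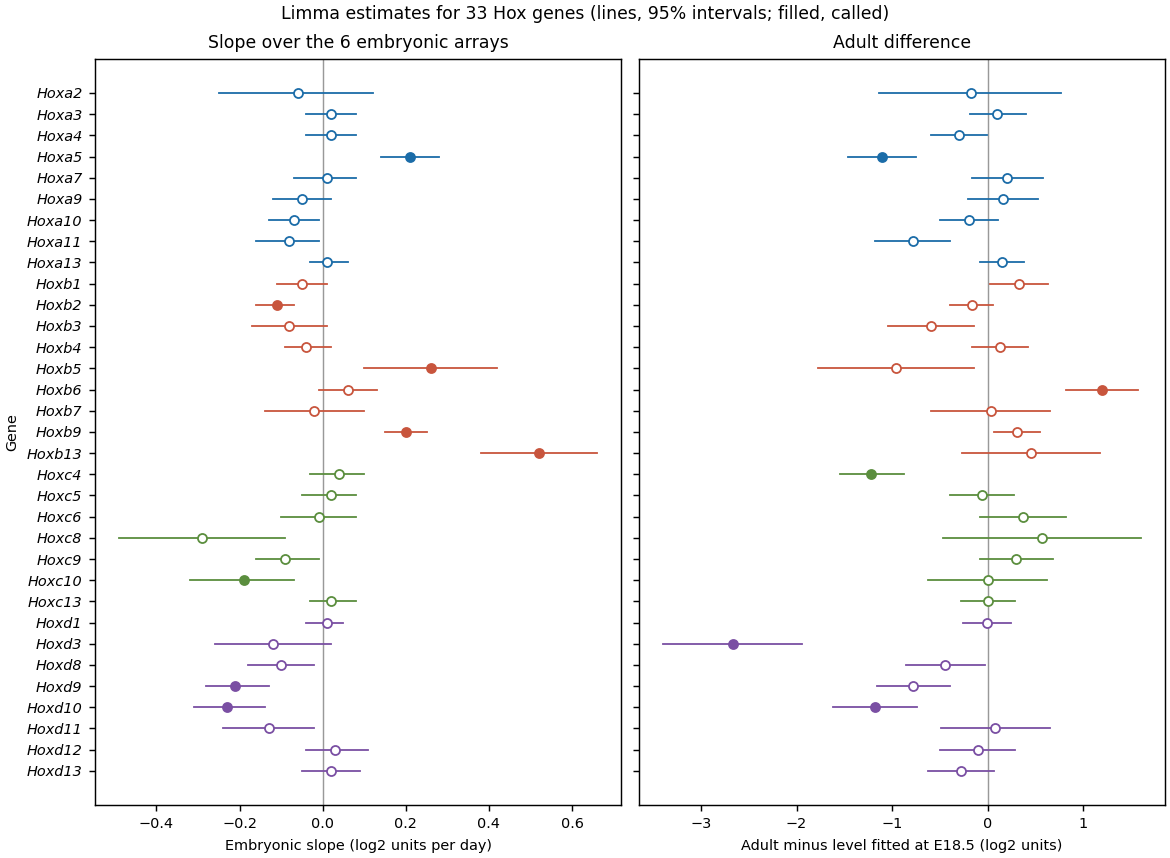
Estimates for the 33 Hox genes in cluster order, with the embryonic slope per day on the left and the adult minus the level fitted at E18.5 on the right, both on the log2 scale. Lines are 95% intervals of the limma fit and filled points are called. Slopes run from −0.29 to 0.52, and adult differences from −2.67 to 1.20.

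Of the 4 paralogues numbered 13, the most posterior genes, Hoxb13 alone was called in either comparison. Hoxa13, which is needed in the hindgut, the urogenital tract and the digits, had levels of 5.04, 5.04, 5.04, 5.11, 5.01 and 5.14 from E13.5 to E18.5 and 5.25 in the adult, all within the olfactory receptor range. Hoxc13, a gene of hair and nails, had levels of 4.27, 4.23, 4.48, 4.39, 4.39 and 4.36 over the embryonic days and 4.42 in the adult, in the same range. Hoxd13, which acts in the digits and the anal sphincter, had median levels of 6.96, 7.08, 7.16, 7.32, 7.13 and 7.06 and 6.90 in the adult. The Hoxd13 median joins a bright and a dim probe set. The bright one, 1440626_at, had 8.98, 9.42, 9.30, 9.87, 9.62 and 9.46 from E13.5 to E18.5 and 9.02 in the adult. It was highest at E16.5, but its slope of 0.10 (adjusted p = 0.243 over all probe sets) and its adult difference of −0.68 (adjusted p = 0.137) did not pass. The dim one, 1422239_at, stayed between 4.64 and 5.03.

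Medians by cluster are given as a description, with no test. The median slope was 0.01 per day for Hoxa, −0.02 for Hoxb, −0.01 for Hoxc and −0.11 for Hoxd, against 0.00 for all genes. The median adult difference was −0.18 for Hoxa, 0.13 for Hoxb, 0.00 for Hoxc and −0.36 for Hoxd, against 0.03 for all genes. In Hoxd, 7 of 8 genes had an adult difference below 0, with Hoxd11 at 0.08 as the exception, and 5 of 8 had a slope below 0. In Hoxb, 6 of 9 genes had an adult difference above 0. Over all 18194 genes, 8051 had an adult difference below 0, 10143 had one above 0 and 8960 had a slope below 0.

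Calls occurred in every range of paralogue numbers. Over all genes 9.12% rose, 10.4% fell, and 8051 of 18194 had an adult difference below 0. Counts as small as those below do not set 1 range apart. Among genes numbered 1 to 4, none of 10 rose, Hoxb2 fell, and 7 had an adult difference below 0. Among the 9 genes numbered 5 to 8, Hoxa5 and Hoxb5 rose and none fell. Among the 14 numbered 9 to 13, Hoxb9 and Hoxb13 rose while Hoxc10, Hoxd9 and Hoxd10 fell. Paralogues thus had different calls, since Hoxb9 rose and Hoxd9 fell, whereas Hoxa9 (slope −0.05 ± 0.03, adjusted p = 0.33) and Hoxc9 (slope −0.09 ± 0.03, adjusted p = 0.109) did not pass. These differences between paralogues were not tested.

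By stage, 12 of the 33 Hox genes were highest at E13.5, 6 at E15.5 and 6 in the adult, and 13 were lowest in the adult. Such counts were not made over all genes, so they describe the Hox genes without a background. The study's own measure, a Spearman correlation with stage order whose size exceeds 0.9, was passed upward by Hoxb9 and Hoxb13 (6.06% of Hox genes, against 6.5% of all genes) and downward by Hoxa10, Hoxb2, Hoxc10, Hoxd9 and Hoxd10 (15.2%, against 7.73%). Keeping the 1000 such genes with the largest median absolute deviation, its definition of development-related genes, left Hoxb9 and Hoxb13 as rising, when 3.08% of all genes were, and Hoxd10 as falling, when 2.42% of all genes were. With the brightest probe set of each gene, Hoxd8 passed the Spearman cutoff downward in place of Hoxa10. Hoxb2 passed it at levels within the olfactory receptor range.

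The other 22 Hox genes were called in neither comparison. Of these, 5 still spanned at least 1 log2 unit over the 7 arrays: Hoxa11 and Hoxc8, described above, and Hoxa2, Hoxb3 and Hoxd8. Hoxa2, which patterns the hindbrain and second pharyngeal arch, had its highest level, 7.34, at E15.5 and its lowest, 6.19, at E17.5. Hoxb3 was highest at E15.5 (8.98) and lowest in the adult (7.85). Hoxd8 had its top level at E13.5 (8.95) and its lowest in the adult (7.87), with a slope of −0.10 ± 0.03 (adjusted p = 0.0872).

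The remaining genes without a call spanned less than 1 log2 unit. In the Hoxa cluster these were Hoxa3, Hoxa4, Hoxa7, Hoxa9, Hoxa10 and Hoxa13, with spans between 0.24 and 0.67. In the Hoxb cluster they were Hoxb1, Hoxb4 and Hoxb7, with spans between 0.29 and 0.61. In the Hoxc cluster they were Hoxc5, Hoxc6, Hoxc9 and Hoxc13, between 0.25 and 0.62, and in the Hoxd cluster Hoxd1, Hoxd11, Hoxd12 and Hoxd13, between 0.13 and 0.87. Hoxd11 had the widest of these spans, since it stood at 5.59 at E13.5 and between 4.72 and 5.02 from E14.5 to the adult.

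RMA values carry no detection call, so the highest level of each Hox gene was set against that of 38 olfactory receptor genes, whose 95th percentile was 5.59. Hoxa4, Hoxa13, Hoxb1, Hoxb2, Hoxc13 and Hoxd1 lay within this range (18.2% of Hox genes, against 30.4% of all genes), and 27 lay above it. Hoxd11 lay just above, with a highest level of 5.59 after rounding. With the brightest probe set of each gene the percentile was 5.77, Hoxd11 lay within the range and Hoxa4 above it, since its probe set 1427354_at stood between 5.88 and 6.23 on the 7 arrays. A level in this range does not show that a gene was silent, because a weak probe set gives low values for a transcribed gene as well.

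Of the 33 genes, 11 had several probe sets and 22 had 1. In 8 of the 11 the mean levels of the probe sets lay more than 2 log2 units apart, and Hoxa10 had the widest gap, with 1431475_a_at at a mean of 10.18 and 1446408_at at 4.92. Calls differed between the probe sets of 1 gene. For Hoxa5, 1448926_at rose and was called lower in the adult (−1.37, adjusted p = 0.000695), while 1443803_x_at rose but had an adult difference of −0.84 (adjusted p = 0.0412), under the 2-fold limit. Over all 48 Hox probe sets 5 rose (10.4%, against 7.24% of all 34958 probe sets), 4 fell (8.33%, against 9.55%), 1 was higher in the adult (2.08%, against 3.94%) and 4 were lower (8.33%, against 4.21%). The bright Hoxa10 probe set had an adult difference of −0.61 (adjusted p = 0.0342) that the median over both probe sets, at −0.20, did not show.

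**Figure D4:**
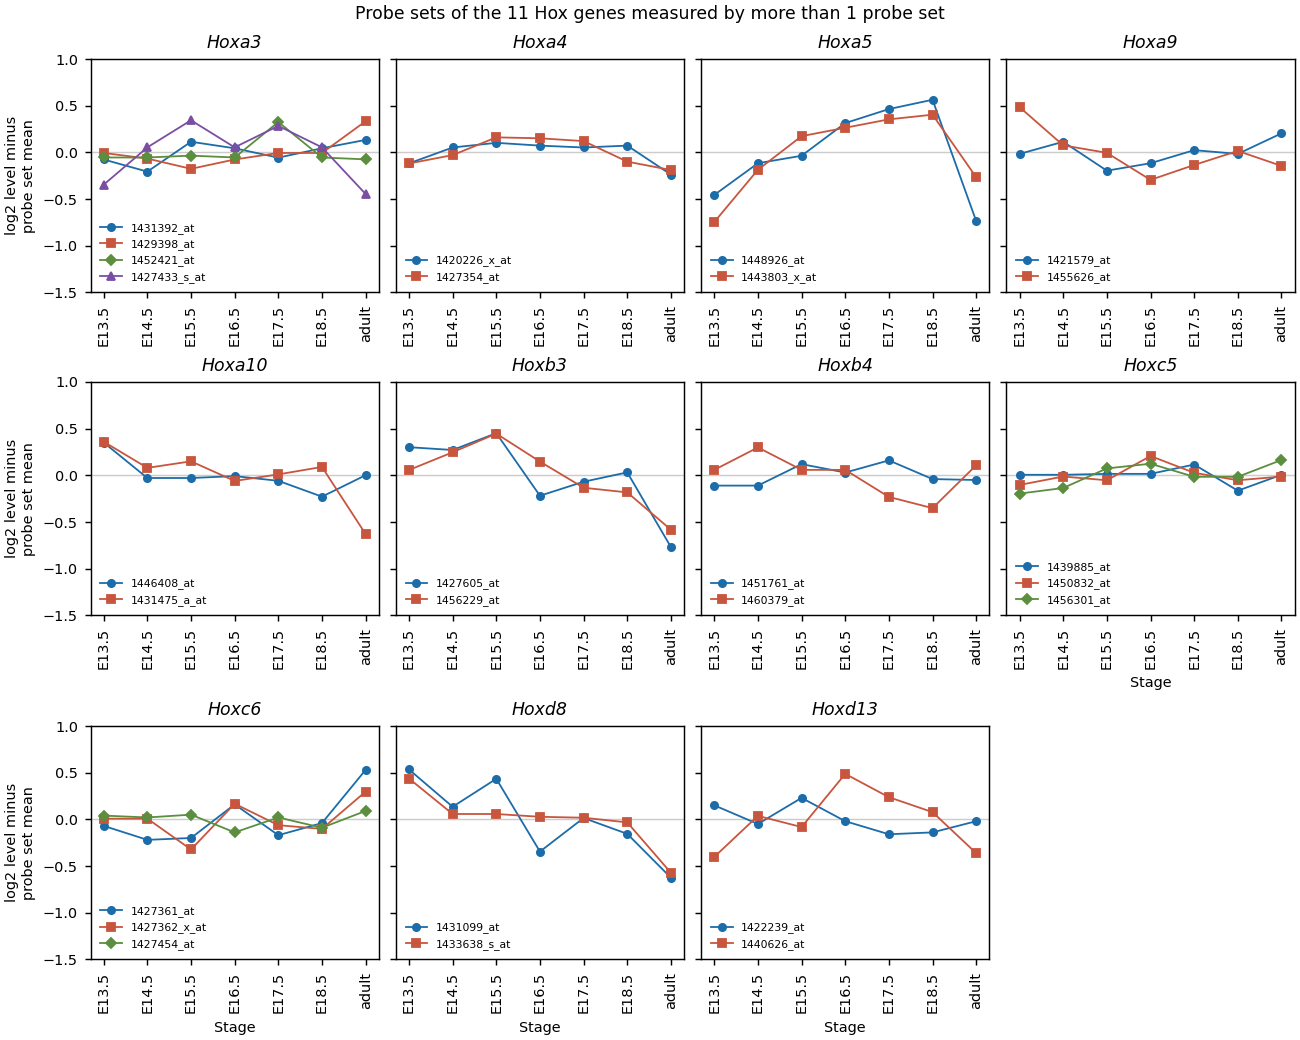
Probe sets of the 11 Hox genes that have more than 1, over the 7 stages. Each line is a probe set, as its log2 RMA level minus its own mean over the 7 arrays. Both Hoxa5 probe sets increase to E18.5 and are lower in the adult, and the Hoxd13 probe sets take different courses.

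Hox proteins bind DNA with TALE cofactors of the Pbx, Meis and Pknox families, and 4 of the 8 measured fell over the embryonic days, against 10.4% of all genes, while none rose. Meis1, Meis2 and Pbx3 fell by 0.35, 0.28 and 0.09 log2 units per day, with adjusted p of 0.00921, 0.00281 and 0.0225. Pknox1 also fell, and Pbx2 had a slope of −0.16 that did not pass (adjusted p = 0.0907). In the adult Meis2 and Pbx3 were lower, with differences of −1.57 ± 0.17 (adjusted p = 0.00125) and −1.60 ± 0.10 (adjusted p = 0.00016), and Meis1 had −0.96 ± 0.31 (adjusted p = 0.082). The median slope of the list was −0.09, against −0.02 for the Hox genes and 0.00 for all genes.

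Caudal factors and posterior signals such as Wnt3a and Fgf8 act upstream of Hox genes in the early embryo. The list used here also holds Tbx3, Tbx4 and Tbx5, for which no such role is claimed. Of the 10 listed genes measured, the caudal genes Cdx1 and Cdx2 rose, against 9.12% of all genes, and none fell. Cdx1, an intestinal epithelial transcription factor, had levels of 5.60, 5.77, 6.04, 7.09, 7.87 and 8.31 from E13.5 to E18.5 and 8.57 in the adult, with a slope of 0.60 ± 0.06 (adjusted p = 0.00167). Cdx2 had a slope of 0.09 ± 0.02 (adjusted p = 0.0177). Tbx3 had a slope of −0.04, and the adult difference of Wnt3a was 0.24, neither of which passed. Both Cdx genes are also in the list of colon identity genes.

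Retinoic acid switches on anterior Hox genes through retinoid receptors. Of 14 genes of this pathway 1 rose, Dhrs3, a retinaldehyde reductase, and 2 fell, the receptor Rarb and the binding protein Crabp1, when 9.12% of all genes rose and 10.4% fell. Crabp1 fell by 0.31 per day (adjusted p = 0.0249) and Rarb by 0.22 (adjusted p = 0.00634). Aldh1a2, which makes retinoic acid in mesenchyme, had a slope of −0.22 ± 0.07 that did not pass (adjusted p = 0.0855). None was called in the adult, where Rarb, Aldh1a2 and Aldh1a1 had the largest differences in size, −0.76, −0.71 and 0.53.

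Polycomb proteins keep Hox genes silent and trithorax proteins keep them active. Of 21 Polycomb genes 7 fell and 1 rose, and of 13 trithorax group genes 5 fell and none rose, when 10.4% of all genes fell and 9.12% rose. Ezh2, the main methyltransferase of Polycomb complex 2, fell by 0.31 per day (adjusted p = 0.00111), Phc1 fell by 0.24 and Bmi1 fell by 0.19. The remaining Polycomb genes that fell were Eed, Mtf2, Cbx2 and Scmh1, and Cbx6 rose. Psip1, Rbbp5 and Kmt2a of the trithorax group fell by 0.28, 0.19 and 0.16, as did Wdr5 and Ash2l by less. In the adult Scmh1, Cbx6 and Psip1 were called lower, with differences of −1.09, −1.01 and −1.62. Pcgf1 (−0.70), Ash2l (−0.68) and Mllt3 (0.68) had differences under the 2-fold limit. All 7 mitotic genes measured fell over the same days, and their part in these slopes was not tested.

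Of 17 genes that flank the Hox clusters 1 rose, Tax1bp1 near Hoxa (slope 0.24 ± 0.03, adjusted p = 0.00276), and 3 fell, counts near the 9.12% and 10.4% of all genes. Cbx5 near Hoxc had a slope of −0.23 ± 0.03 (adjusted p = 0.00313), Snx10 near Hoxa had −0.17 and Lnpk near Hoxd had −0.15. Atf2, on the far side of Lnpk from Hoxd, had a slope of −0.18 that did not pass (adjusted p = 0.0855). None was called in the adult, where Atf2, Cbx5 and Skap2 had differences of −0.72, −0.53 and 0.44. Evx2, which lies next to Hoxd13, had a slope of −0.01 and an adult difference of −0.09.

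**Figure D5:**
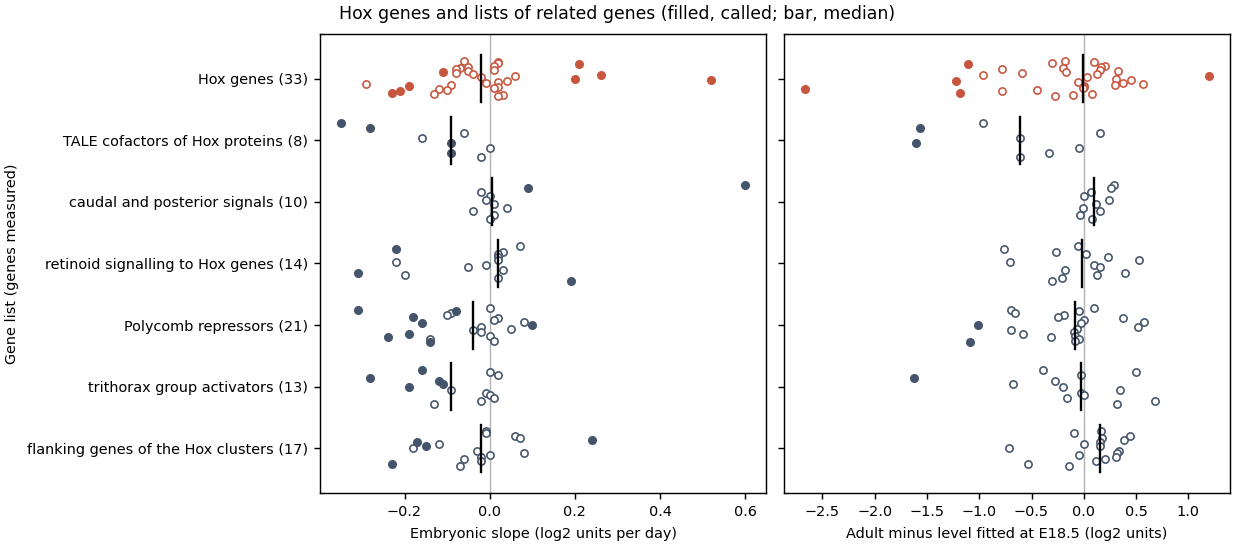
Embryonic slope (left) and adult minus the level fitted at E18.5 (right), both on the log2 scale, for the Hox genes and 6 lists of related genes. Points are genes, filled where called, and bars are medians. The TALE cofactors lie mostly below 0 on both sides, with medians of −0.09 and −0.61, while the Hox genes spread to both sides.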

How the data were processed

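Total RNA of 7 colon samples was measured on 1 Affymetrix mouse array each. The values deposited are log2 intensities after RMA, in which background is removed, all arrays are brought to 1 distribution and the probes of a set are combined, so a shift common to most genes would not show. The tools named in the submitters' processing notes are affy (1.22.1) in R (2.9.2). Arrays have no read depth, and 1 array per stage limits the precision. Probe sets were named through the platform annotation, with symbols updated through RefSeq (GRCm38.p6, 18033 of 18195 identifiers matched). Of 45101 probe sets, 932 that name several genes and 9211 that name none were dropped. Taking the median where a gene had several gave 18194 genes, with no filter on low values.

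Limma 3.58.1 in R 4.3.3 (lmFit and eBayes) fitted a line through embryonic day plus an adult term, the adult minus the E18.5 end of that line, with 4 residual degrees of freedom, to all genes, and p-values were adjusted by Benjamini-Hochberg over all of them. They measure only the spread of single arrays around the line, which may be technical. Probe sets were fitted alike. On simulated data for 18194 genes slopes of 0.2 were called in 74% of 50 genes and slopes of 0.5 in 96%, and adult differences of 1.5 in 80% and of 3 in 94%. There 17994 genes were left unchanged and errors were independent and normal. In the real data 9.12% of genes rose and 10.4% fell, so these percentages may not hold for them. The members and lists were chosen with earlier results of these data known. Every Hox gene is named. Stage values are given for called genes, paralogues numbered 13, rising genes and the 2 steepest slopes of each cluster, and for each related list the 3 genes largest in size in either comparison are named. Alternatives were the brightest probe set, leaving out the dimmest 25% of genes or each embryonic array, centring each array, trend and robust options in eBayes, a line through stage order with the adult as the seventh step, the E17.5 and E18.5 arrays as reference of the adult, the embryonic arrays alone and a 99th percentile for the olfactory range. Promoters were searched on both strands with Python 3.11.15.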

Additional observations from a re-analysis of the deposited data

How the results depend on the processing

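No paired analysis was possible because each stage has 1 array. No called slope or adult difference of a Hox gene changed sign under the alternatives run for it, and Hoxb2 has no value without the dimmest 25% of genes. Genes of the related lists were not run. The slopes of Hoxb9, Hoxb13 and Hoxd9 stayed called in all 11 alternatives, and those of Hoxb5 and Hoxc10 were lost in 5 and 4 of them. Leaving out 1 embryonic array gave 3 to 5 rising and 2 to 6 falling Hox genes. The 2 falling genes without the E13.5 array were Hoxd9 and Hoxd10, and the 2 without the E18.5 array were Hoxb2 and Hoxd9. Adult calls kept 1 higher and 4 lower Hox genes whichever embryonic array was left out. Development-related Hox genes then numbered 1 to 2 rising and 1 to 2 falling, and those past the Spearman cutoff 5 to 8. A line through the order of the 7 stages called 2 rising Hox genes, Hoxb9 and Hoxb13, and 8 falling ones, because it counts the adult as a further step. Against the E17.5 and E18.5 arrays only, 0 Hox genes were called higher and 0 lower. That fit has 1 residual degree of freedom and limma called 0 of 18194 genes, although 1430 had an unadjusted p under 0.05 and a 2-fold difference. The 5 Hox genes called in the adult then had differences of 1.24 for Hoxb6, −2.57 for Hoxd3, −1.25 for Hoxd10, −1.24 for Hoxc4 and −0.95 for Hoxa5. That of Hoxa5 was under the 2-fold limit. Centring the arrays made 2 development-related Hox genes fall, Hoxd9 and Hoxd10. With the 99th percentile of olfactory receptor genes, 8 Hox genes lay at background in place of 6. Arrays carry no detection call here, so genes near that range have an uncertain level.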

Other observations

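Hoxb8 and Hoxd4 were measured only by probe sets that name a neighbour as well, and a fit on all 45101 probe sets, added after their values were seen, included them. The probe set shared by Hoxb8 and Hoxb7 had log2 levels of 4.75, 4.80, 4.99, 4.97, 5.13 and 5.04 from E13.5 to E18.5 and 6.40 in the adult. The embryonic levels lay within the olfactory receptor range. Only the adult array was high, as it was for Hoxb6 in the same cluster. The adult difference was 1.29 ± 0.11 (SE), with an adjusted p of 0.000779 in limma. The probe set of Hoxb7 alone had 5.26 in the adult and 5.17 at E18.5, with an adult difference of 0.03 ± 0.26 (adjusted p = 0.965), so the 2 probe sets that name Hoxb7 gave different adult values. Of the 2 probe sets shared by Hoxd4 and Hoxd3, 1421537_at had an adult difference of −0.37 ± 0.25 (adjusted p = 0.416) and 1450209_at had 0.16 ± 0.11 (adjusted p = 0.42), against −2.67 for the probe set of Hoxd3 alone.

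Transcripts from the opposite strand of the clusters were measured for 3 loci. Hoxd3os1 had a slope of −0.16 ± 0.04 per day that did not pass (adjusted p = 0.051), with levels of 6.01, 5.31, 5.57, 5.52, 5.06 and 5.06 from E13.5 to E18.5 and 4.91 in the adult. These are medians of 2 probe sets, of which 1430263_at was called as falling over all probe sets that name 1 gene (slope −0.28, adjusted p = 0.0467, with 5.29 at E18.5 and 6.83 at E13.5) and 1460056_at was not (slope −0.03, adjusted p = 0.79). The adult difference of the median was −0.11 ± 0.23 (adjusted p = 0.815). Hoxb5os had a slope of −0.04 ± 0.06 (adjusted p = 0.75) and Hoxa11os one of 0.04 ± 0.04 (adjusted p = 0.548).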
